A study of Mus musculus with 3 samples.

Results

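The mouse genes whose symbols begin with Zfp and a number (zinc finger protein) were described in primary cortical neurons. They were chosen from the deposited expression table by symbol and by a mean of at least 5 CPM over the 3 libraries, where CPM is the read count scaled by each library's effective size. Of 24054 genes in the table, 362 carried such a symbol, and 268 of these reached the 5 CPM limit. Of the other 94, 86 had reads in at least 1 library and 8 had no read in any library. The level was therefore part of the choice, and the levels of the 268 genes are given as a description. Just above the limit stood Zfp449 with a mean of 5.01 CPM, Zfp93 with 5.14 CPM and Zfp791 with 5.14 CPM. Just below it stood Zfp963 and Zfp119b, both with 4.89 CPM, and Zfp273 with 4.70 CPM.

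The neurons came from C57BL/6 mice at embryonic day 17 and were cultured for 7 days before treatment. For hypoxia with T3, cells received 5 nM of the thyroid hormone triiodothyronine (T3) and spent 7 hours in 0.2% oxygen. For hypoxia, cells spent the same 7 hours in 0.2% oxygen with no T3 added, and control cells stayed in 21% oxygen. The study compared the 3 treatments by RNA sequencing. Each group held 1 library, so no spread between replicates exists, no comparison between groups could be tested, and every fold below compares 2 libraries. In bulk RNA of this kind, fewer cells of a type and less RNA per cell cannot be told apart.

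A zinc finger is a short protein loop held in shape by a zinc ion bound to cysteines and histidines. In the common C2H2 form a pair of cysteines and a pair of histidines hold the ion, and runs of such fingers read DNA sequence. Many mouse Zfp genes encode KRAB zinc finger proteins, which carry a KRAB domain at one end and recruit the corepressor TRIM28 to silence chromatin, above all at transposable elements and imprinted genes. Others are not DNA-binding at all: members of the CCCH class bind AU-rich messenger RNAs and bring the decay machinery to them, and still others act in ribosome assembly or as ubiquitin ligases. The shared symbol thus names a protein fold and not a pathway.

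Finger-coding sequences of 4 of the genes described below are shown to make the classes visible. They were read from GENCODE M21 transcripts on GRCm38 (mm10), and capitals mark the codons of the zinc-binding cysteines and histidines. The Zfp462, Zfp61 and Zfp954 sequences are each gene's first C2H2 match (chr4:55007578-55007643, plus strand; chr7:24291726-24291788, minus strand; chr7:7115884-7115946, minus strand). The Zfp36l2 sequences are its 2 CCCH matches (chr17:84186668-84186727 and chr17:84186554-84186613, minus strand), in which 3 cysteines and 1 histidine hold the zinc.
Zfp462 C2H2: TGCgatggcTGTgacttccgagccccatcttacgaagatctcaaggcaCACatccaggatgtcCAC
Zfp61 C2H2: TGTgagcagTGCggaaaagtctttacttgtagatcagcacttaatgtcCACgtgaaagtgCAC
Zfp954 C2H2: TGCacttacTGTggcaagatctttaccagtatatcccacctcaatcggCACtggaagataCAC
Zfp36l2 CCCH first: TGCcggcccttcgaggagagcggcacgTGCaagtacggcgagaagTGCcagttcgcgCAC
Zfp36l2 CCCH second: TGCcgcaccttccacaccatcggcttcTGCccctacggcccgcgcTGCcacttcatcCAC

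The libraries held 22533574 reads (hypoxia with T3), 17118865 reads (hypoxia) and 18081904 reads (control) over genes. The 268 Zfp genes took 0.793% of the reads in hypoxia with T3, 0.791% in hypoxia and 0.968% in control. Summed CPM of 6 neuronal markers was 5160 in hypoxia with T3, 5255 in hypoxia and 5455 in control. Of these 6, Tubb3 was lower under hypoxia, with 739 CPM in hypoxia with T3, 873 CPM in hypoxia and 1771 CPM in control, and the other 5 were above control in both hypoxic libraries. By contrast, 6 microglial markers summed to 1.62, 1.49 and 1.39 CPM in the same order of libraries and 4 endothelial markers to 1.45, 1.77 and 1.48 CPM. The 6 astrocyte markers summed to 358 CPM in hypoxia with T3, 372 CPM in hypoxia and 313 CPM in control, and 6 neural progenitor markers to 240, 223 and 255 CPM. That progenitor sum joins opposite directions, with 3 markers (Nes, Sox2 and Pax6) above control and 3 below it in each comparison. Those below, in the same order of libraries, were Hes5 (1.40, 1.38 and 10.2 CPM), Mki67 (41.8, 34.8 and 69.4 CPM) and Top2a (43.0, 36.8 and 57.0 CPM). The 7 oligodendrocyte-lineage markers were lower as a sum under hypoxia, at 194 CPM in hypoxia with T3, 192 CPM in hypoxia and 333 CPM in control. Of these 7, all were below control in hypoxia with T3 and 6 in hypoxia. None of the 35 markers was at 0 in all libraries.

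Per kilobase of annotated exon, the scale on which genes can be compared, the Zfp genes had a median of 3.94 CPM per kb and a range of 0.625 to 45.2 CPM per kb. The top of that order was held by Zfp706 at 45.2 CPM per kb and Zfp428 at 42.8 CPM per kb, followed by Zfp46 at 28.5, Zfp580 at 27.1 and Zfp445 at 24.1 CPM per kb. By CPM alone, without regard to length, Zfp704 came first with 320 CPM in hypoxia with T3, 301 CPM in hypoxia and 382 CPM in control. Zfp706, next in that order, had 241 CPM in hypoxia with T3, 237 CPM in hypoxia and 198 CPM in control. Zfp445, Zfp106, Zfp46, Zfp207, Zfp871, Zfp91, Zfp318 and Zfp266 completed the 10 most counted genes, with means between 107 and 179 CPM. For none of these 10 did a hypoxic library and the control library differ by as much as 1.5-fold, the widest being the 1.40-fold higher Zfp207 in hypoxia with T3.

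For each gene a log2 ratio was taken of CPM plus 1, and a gene was counted as higher or lower past 2-fold on that scale. A fold is the plain CPM ratio, with nothing added, so folds run wider than the log2 ratio for low genes, and each fold is given with the 95% exact (Clopper-Pearson) interval of its reads. The intervals cover counting error only, since reads amplified by PCR and carrying no molecular barcode cannot count as separate molecules, and they say nothing of how cultures vary.

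In hypoxia against control, 26 of 268 Zfp genes (9.70%) were at least 2-fold lower, against 4.92% of the 12692 genes averaging 1 CPM or more and 4.56% of the 10365 averaging 5 CPM or more. In the same comparison 4 of 268 (1.49%) were at least 2-fold higher, against 1.99% and 2.06% of those genes. The median log2 ratio of the Zfp genes was -0.12, beside 0.09 for the other 10097 genes of at least 5 CPM. A log2 ratio below 0 was found for 164 of the 268, or 61.2%, beside 43% of all genes of at least 5 CPM. Counting intervals lay wholly below 1 for 44.8% of the Zfp genes and wholly above 1 for 25%, while the same shares of all genes of at least 5 CPM were 31.2% and 43.6%. Of the 26 lower genes, 6 were under 5 CPM in hypoxia and passed the limit through the other libraries, and the count moved with the settings: it was 45 with libraries scaled to equal sums, 10 with 5 CPM added, 14 with a limit of 10 CPM and 16 with the whole counting interval past 2-fold. The inclusion of those 6 genes was tied to the difference itself and the counts describe these genes and support nothing further.

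In hypoxia with T3 against control, which shares the control library with the comparison above, 20 of 268 (7.46%) were at least 2-fold lower and 4 (1.49%) at least 2-fold higher. Of all genes of at least 1 CPM, 4.59% were lower and 2.06% higher, and of those of at least 5 CPM, 4.22% and 2.16%. Of the 20 lower Zfp genes, 4 were under 5 CPM in hypoxia with T3, and under the 4 settings named above the count was 34, 10, 12 and 13. The median log2 ratio was -0.10 for the Zfp genes and 0.11 for the other genes of at least 5 CPM, and 57.8% of the Zfp genes were below 0 beside 40.9% of all genes of at least 5 CPM. With libraries scaled to equal sums of reads, the median log2 ratio over all genes became -0.10 in place of 0.08 for hypoxia with T3 and -0.11 in place of 0.05 for hypoxia, so levels near 0 depend on the scale. The Zfp medians then became -0.28 in hypoxia with T3 and -0.29 in hypoxia, and they stayed below the median of all genes.

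**Figure D1:**
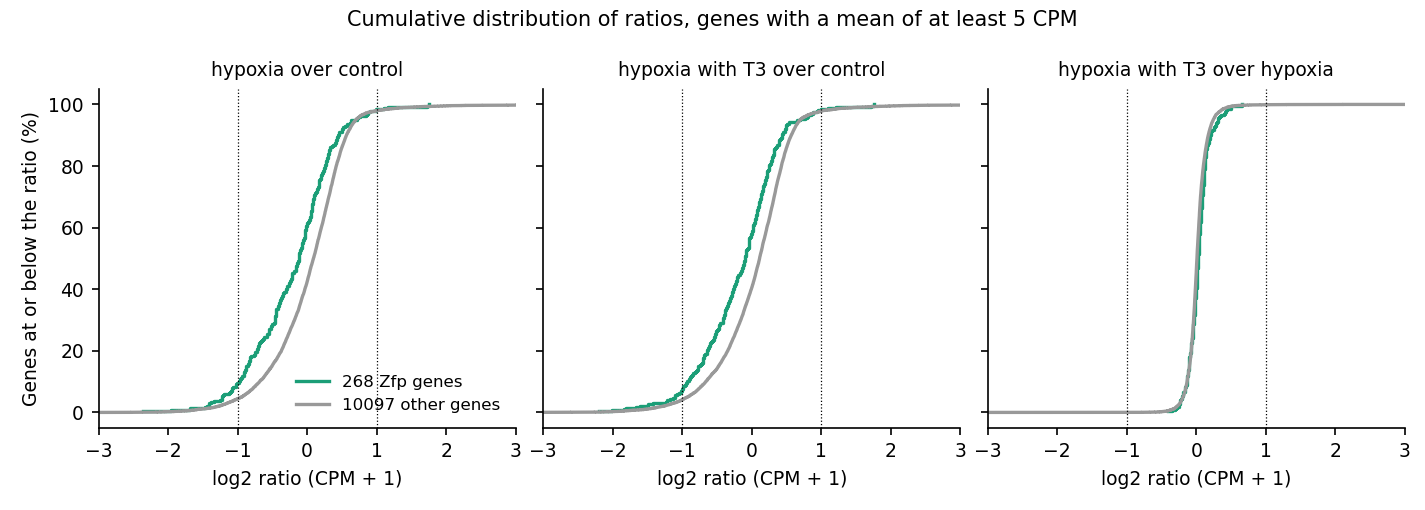
Cumulative share of genes (y axis, percent) at or below each log2 ratio of CPM plus 1 (x axis), for 268 Zfp genes and 10097 other genes averaging 5 CPM or more, in the 3 comparisons; dotted lines mark 2-fold. The Zfp curve lies left of the other genes in both comparisons with control (medians -0.12 against 0.09, and -0.10 against 0.11) and nearly on top of them for hypoxia with T3 over hypoxia.

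The genes furthest above control belonged to different classes. Zfp703 and Zfp503 are the mammalian members of the NET family, atypical zinc finger proteins related to fly no ocelli and elbow that act as corepressors in development. Zfp703 had 91.0 CPM in hypoxia with T3, 90.7 CPM in hypoxia and 26.1 CPM in control. Both hypoxic libraries stood far above control and were nearly equal to each other. The fold over control was 3.48 (interval 3.17 to 3.82) for hypoxia with T3 and 3.47 (3.15 to 3.82) for hypoxia, with log2 ratios of 1.76 in each. Zfp503, which is needed for striatal neuron development in mouse, had 11 CPM in hypoxia with T3, 11 CPM in hypoxia and 2.64 CPM in control, from 258, 200 and 57 reads. Zfp503 was thus under 5 CPM in control and passed the limit through the hypoxic libraries, so its inclusion was tied to the difference itself. Its fold over control was 4.15 (3.11 to 5.64) for hypoxia with T3 and 4.18 (3.1 to 5.72) for hypoxia. Zfp703 lies at chr8:26977325-26981461 (plus strand) and Zfp503 at chr14:21983959-21989601 (minus strand), and both are short genes, of 4.14 and 5.64 kb.

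Zfp61 and Zfp954, both on chromosome 7 and both matching the KRAB pattern, were the other 2 genes past 2-fold. Zfp61 (chr7:24291039-24301232, minus strand) had 25.2 CPM in hypoxia with T3, 26.3 CPM in hypoxia and 11.2 CPM in control. The fold was 2.24 (1.93 to 2.62) for hypoxia with T3 and 2.34 (2 to 2.75) for hypoxia. Zfp954 (chr7:7114690-7121488, minus strand) had 30.4 CPM in hypoxia with T3, 27.9 CPM in hypoxia and 12.5 CPM in control. Its fold was 2.44 (2.11 to 2.81) for hypoxia with T3 and 2.24 (1.93 to 2.61) for hypoxia. For each of these KRAB-pattern genes the interval reached down to or below 2-fold in at least 1 comparison. With libraries scaled to equal sums, Zfp61 was at a log2 ratio of 0.92 in hypoxia with T3 and 1.002 in hypoxia, and Zfp954 at 1.04 and 0.94, while Zfp703 and Zfp503 stayed above 1.5 in both.

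Just short of 2-fold on the log2 scale in hypoxia came Zfp36l2 (0.996), Zfp869 (0.990), Zfp622 (0.91), Zfp574 (0.88), Zfp235 (0.86) and Zfp593 (0.85). In hypoxia with T3 the place after the first 4 was taken by Zfp383, another KRAB-pattern gene, with 13.0 CPM in hypoxia with T3, 9.44 CPM in hypoxia and 6.02 CPM in control and a log2 ratio to control of 0.996. Zfp869 had 44.0 CPM in hypoxia with T3, 47.3 CPM in hypoxia and 23.3 CPM in control. Zfp235, also of the KRAB pattern, had 19.8 CPM in hypoxia with T3, 18.5 CPM in hypoxia and 9.73 CPM in control.

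Promoters of higher genes are shown because these genes shared a direction. The RefSeq promoter table (GRCm38.p6, 250 bases before to 50 after each start) matched 220 of the 268 Zfp genes, among them Zfp503, Zfp61 and Zfp954. Capitals mark matches, on either strand, to ACGTG or GCGTG, both core forms of the hypoxia response element bound by HIF, to the AP-1 site TGANTCA or to the CRE site TGACGTCA. Zfp503 lies at chr14:21989552-21989851 (minus strand), Zfp61 at chr7:24299500-24299799 (minus strand), Zfp954 at chr7:7121427-7121726 (minus strand), and Zfp804a, a lower gene given for comparison, at chr2:82053408-82053707 (plus strand).
Zfp503: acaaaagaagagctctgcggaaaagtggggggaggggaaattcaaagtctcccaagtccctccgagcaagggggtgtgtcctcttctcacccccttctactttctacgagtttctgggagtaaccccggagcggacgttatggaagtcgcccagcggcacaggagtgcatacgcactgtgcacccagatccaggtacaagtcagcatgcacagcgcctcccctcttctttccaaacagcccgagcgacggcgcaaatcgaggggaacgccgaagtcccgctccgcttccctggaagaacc
Zfp61: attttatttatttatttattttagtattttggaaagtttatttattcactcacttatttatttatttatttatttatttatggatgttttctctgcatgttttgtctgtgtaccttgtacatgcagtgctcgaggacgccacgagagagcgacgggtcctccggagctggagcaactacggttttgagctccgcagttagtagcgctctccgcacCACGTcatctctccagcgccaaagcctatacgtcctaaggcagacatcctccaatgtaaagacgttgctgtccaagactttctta
Zfp954: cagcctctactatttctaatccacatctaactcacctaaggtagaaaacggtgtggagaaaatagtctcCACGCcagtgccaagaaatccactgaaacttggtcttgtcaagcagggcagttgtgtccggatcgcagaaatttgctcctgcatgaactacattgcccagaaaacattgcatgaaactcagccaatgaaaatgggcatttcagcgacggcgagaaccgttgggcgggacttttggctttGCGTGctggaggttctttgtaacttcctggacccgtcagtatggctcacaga
Zfp804a: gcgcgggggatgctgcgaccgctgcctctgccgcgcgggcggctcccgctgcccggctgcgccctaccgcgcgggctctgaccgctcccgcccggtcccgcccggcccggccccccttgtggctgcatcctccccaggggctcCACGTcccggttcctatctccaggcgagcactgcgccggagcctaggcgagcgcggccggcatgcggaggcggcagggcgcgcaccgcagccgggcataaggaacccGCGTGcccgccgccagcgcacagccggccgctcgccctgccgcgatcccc

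The Zfp61 promoter held 1 match to ACGTG, the Zfp954 promoter held 2 matches to GCGTG, the Zfp804a promoter held 1 of each, and the Zfp503 promoter held no match to the 4 motifs. ACGTG was found in 25% of the matched Zfp promoters, in 26.1% of the promoters of genes of at least 1 CPM and in 19.7% of all promoters in the table. GCGTG was found in 41.8%, 53.1% and 32.5% of the same sets. TGANTCA was found in 5.00%, 4.18% and 7.93%, and TGACGTCA in 2.73%, 3.5% and 1.88%. A match describes letters in the window and not a bound site. The Zfp61 and Zfp804a windows lie wholly within the annotated spans of these genes, downstream of the outermost annotated start. Their matches therefore describe a window at another start.

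**Figure D2:**
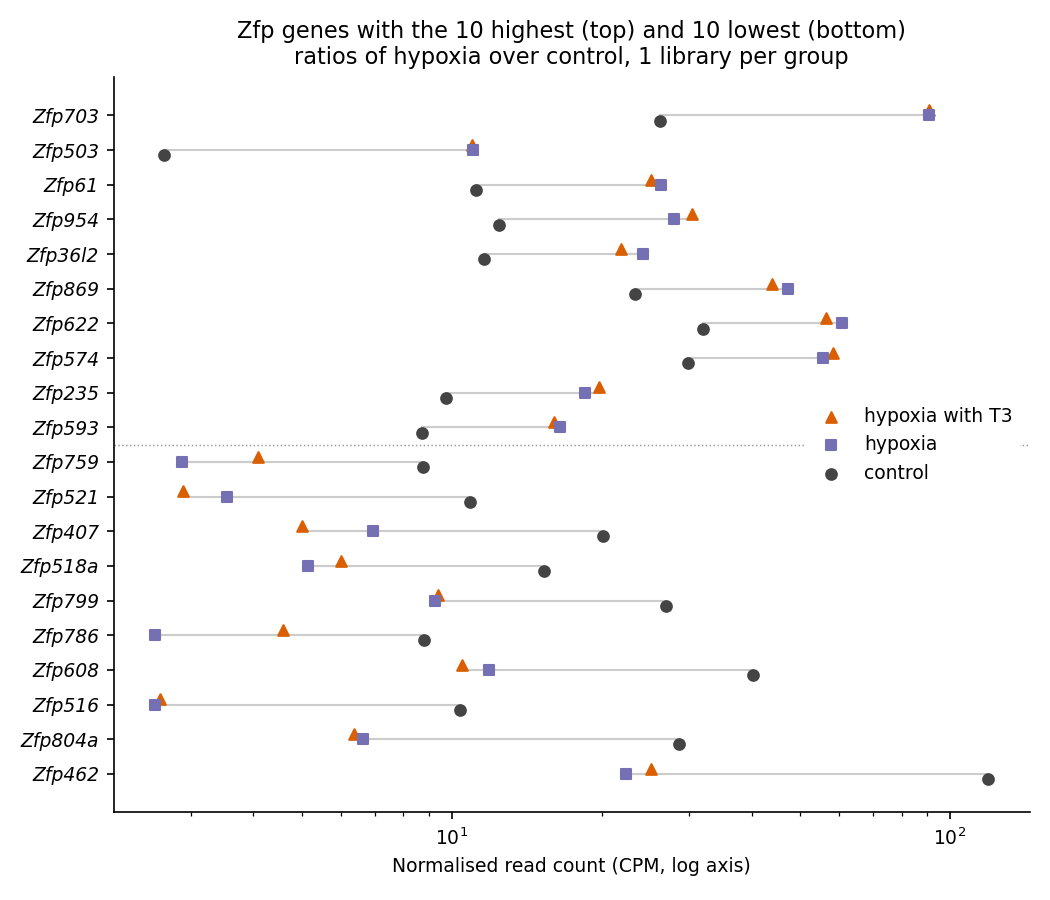
Normalised read count (x axis, CPM on a log scale) in the hypoxia with T3, hypoxia and control libraries for the 10 Zfp genes with the highest (top) and the 10 with the lowest (bottom) ratio of hypoxia over control. The genes were chosen by the ratio drawn, so their side of control is no finding; Zfp462 has the longest line, with 22.4 CPM in hypoxia and 119 CPM in control.

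The 2 lowest genes in both comparisons were Zfp462 and Zfp804a. Zfp462, whose human counterpart is mutated in a neurodevelopmental disorder, had 25.1 CPM in hypoxia with T3, 22.4 CPM in hypoxia and 119 CPM in control. These values rest on 591, 406 and 2575 reads, and the control library stood apart from both hypoxic ones. Zfp462 (chr4:54945048-55083563, plus strand, 139 kb) was 4.75-fold lower (4.34 to 5.20) in hypoxia with T3 and 5.32-fold lower (4.79 to 5.92) in hypoxia. In the authors' deposited table Zfp462 had a signed fold of -4.99 with a false discovery rate of 0.0441 for hypoxia with T3 over control. For hypoxia over control, the authors' deposited table gave -5.55 with a false discovery rate of 0.0270. It was the only one of the 268 under 0.05 in either comparison, where the authors' deposited table placed 104 and 85 of 13152 genes under 0.05, by a test on 1 library against 1 that the sources used here do not name.

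Zfp804a, whose human counterpart lies in a locus associated with schizophrenia, had 6.38 CPM in hypoxia with T3, 6.63 CPM in hypoxia and 28.6 CPM in control. It was 4.49-fold lower (3.75 to 5.40) in hypoxia with T3 and 4.32-fold lower (3.55 to 5.30) in hypoxia. The gene lies at chr2:82053222-82259879 (plus strand) and spans 207 kb. Zfp608, related to the cortical migration factor Zfp609, had 10.5 CPM in hypoxia with T3, 11.9 CPM in hypoxia and 40.2 CPM in control, and was 3.83-fold (3.32 to 4.43) and 3.39-fold (2.91 to 3.95) lower. Zfp521, a many-fingered regulator of neural progenitor fate, had 2.89 CPM in hypoxia with T3, 3.53 CPM in hypoxia and 10.9 CPM in control. Zfp407 had 5.02 CPM in hypoxia with T3, 6.96 CPM in hypoxia and 20.1 CPM in control.

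Zfp516, known in mouse as an activator of brown fat genes, had 2.59 CPM in hypoxia with T3, 2.54 CPM in hypoxia and 10.4 CPM in control, from 61, 46 and 224 reads. The other names among the 10 lowest in either comparison were Zfp518a, Zfp786, Zfp759, Zfp799, Zfp933 and Zfp710. Of these, Zfp799 had 9.40 CPM in hypoxia with T3, 9.28 CPM in hypoxia and 26.9 CPM in control. Zfp933 had 6.17 CPM in hypoxia with T3, 7.73 CPM in hypoxia and 19.1 CPM in control, and Zfp710 had 6.08, 5.96 and 15.7 CPM in the same libraries. These 12 genes were chosen as the lowest in either comparison, and both comparisons share the control library, so their common direction is largely set by the choice. Zfp516, Zfp521 and Zfp786 were each under 5 CPM in both hypoxic libraries and passed the limit through control, so their inclusion was tied to the difference itself.

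Among the 17 measured Zfp genes on the neural development list, 2 were at least 2-fold higher and 6 at least 2-fold lower in each comparison with control, with a median log2 ratio of -0.46 in hypoxia with T3 and -0.51 in hypoxia. Over all genes of at least 5 CPM, 2.16% were 2-fold higher and 4.22% lower in hypoxia with T3, and 2.06% and 4.56% in hypoxia. These shares stand beside each list below, but they are not matched for gene span, which moved with the ratios as described further on. Zfp462 and Zfp804a, lower genes of this list, each span more than 100 kb. The 2 higher genes were Zfp703 and Zfp503, and the lower ones were Zfp462, Zfp804a, Zfp608, Zfp407, Zfp521 and Zfp148. Zfp521 was under 5 CPM in both hypoxic libraries and Zfp503 in control, so the inclusion of these genes was tied to the difference itself. Zfp148, a factor that binds GC-rich promoters, had 51.6 CPM in hypoxia with T3, 47.3 CPM in hypoxia and 112 CPM in control. It was 2.18-fold lower (2.03 to 2.33) in hypoxia with T3 and 2.38-fold lower (2.2 to 2.57) in hypoxia. Zfp292, whose human counterpart is linked to intellectual disability, came close with 46.7 CPM in hypoxia with T3, 44.8 CPM in hypoxia and 86.9 CPM in control. Zfp281, Zfp423, Zfp609, Zfp365 and Zfp536 had log2 ratios between -0.58 and -0.45 in hypoxia and between -0.49 and -0.37 in hypoxia with T3. Zfp335, a factor required in neural progenitors, was on the other side, with 56.2 CPM in hypoxia with T3, 53.6 CPM in hypoxia and 39.5 CPM in control, though 28.3% of its exonic bases lie antisense to other genes. Zfp711, of which mutations in people cause X-linked intellectual disability, had log2 ratios of 0.30 and 0.24. Zfp191, which is needed for myelination in mouse, had 0.13 and 0.07, and these 2 values turned negative with libraries scaled to equal sums. The sum of oligodendrocyte-lineage markers, 194 CPM in hypoxia with T3, 192 CPM in hypoxia and 333 CPM in control, moved the same way as the lower genes of this list, and its part in their values was not tested.

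On the chromatin list 14 genes were measured, none was 2-fold higher and 3 were at least 2-fold lower in each comparison, with medians of -0.47 in hypoxia with T3 and -0.47 in hypoxia. Zfp518a and Zfp518b were past 2-fold in both, and the human counterpart of Zfp518b binds the histone methyltransferase G9a. Zfp518a had 6.00 CPM in hypoxia with T3, 5.14 CPM in hypoxia and 15.3 CPM in control. Zfp518b had 30.4 CPM in hypoxia with T3, 26.3 CPM in hypoxia and 62.7 CPM in control. The third was Zfp827, a NuRD-recruiting protein, in hypoxia with T3 and Zfp644, a partner of the G9a and GLP methyltransferases, in hypoxia, and both lay at the limit in both comparisons. Zfp827 had log2 ratios of -1.05 in hypoxia with T3 and -0.98 in hypoxia, and Zfp644 had -0.956 and -1.004. Zfp532 and Zfp592, which with Zfp687 bind the chromatin reader ZMYND8, had log2 ratios of -0.49 and -0.46 in hypoxia with T3 and -0.47 for both genes in hypoxia. Zfp687 itself had 20.8 CPM in hypoxia with T3, 19.8 CPM in hypoxia and 20.4 CPM in control. Zfp410, known for driving expression of the NuRD subunit gene Chd4, had 31.1 CPM in hypoxia with T3, 31.3 CPM in hypoxia and 22.6 CPM in control.

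Among the genes listed for RNA, ribosomes and ubiquitin, 10 were measured. Of these, none was past 2-fold in either direction, 8 were above control in each comparison, beside 59.1% of all genes of at least 5 CPM in hypoxia with T3 and 57% in hypoxia, and the median log2 ratio was 0.38 in hypoxia with T3 and 0.44 in hypoxia. With libraries scaled to equal sums, 6 of 10 were above control, Zfp106 and Zfp91 having turned below it, and the medians were 0.19 and 0.27. Zfp622, a maturation factor of the large ribosomal subunit, had 56.5 CPM in hypoxia with T3, 60.8 CPM in hypoxia and 31.9 CPM in control. That was 1.77-fold (1.61 to 1.94) and 1.91-fold (1.73 to 2.1) higher. Zfp593, related to the yeast export factor of the same subunit, had 16.1 CPM in hypoxia with T3, 16.5 CPM in hypoxia and 8.71 CPM in control. Since 77.9% of the annotated exonic bases of Zfp593 lie opposite another gene, and since no source used here says whether strand was used in counting, reads of the 2 strands cannot be told apart. Zfp598, the ubiquitin ligase that senses collided ribosomes, had 60.3 CPM in hypoxia with T3, 63.0 CPM in hypoxia and 44.2 CPM in control. Zfp207, Zfp330 and Zfp346 had log2 ratios between 0.31 and 0.48 in hypoxia with T3 and between 0.43 and 0.46 in hypoxia. Zfp326 and Zfp385a were the 2 below control, at -0.04 and -0.21 in hypoxia with T3 and -0.19 and -0.33 in hypoxia.

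Of the CCCH decay factors 2 reached the 5 CPM limit. Zfp36l2 had 21.9 CPM in hypoxia with T3, 24.2 CPM in hypoxia and 11.6 CPM in control. It was 1.88-fold higher (1.61 to 2.19) in hypoxia with T3 and 2.08-fold higher (1.78 to 2.44) in hypoxia. Zfp36l1 had 20.8 CPM in hypoxia with T3, 20.1 CPM in hypoxia and 20.4 CPM in control, and 55.9% of its exonic bases lie antisense to a predicted gene. Zfp36 itself, an immediate-early gene that encodes tristetraprolin, was under the limit, with 3.02 CPM in hypoxia with T3, 4.20 CPM in hypoxia and 0.510 CPM in control, from 71, 76 and 11 reads. Its fold over control was 5.92 (3.12 to 12.4) in hypoxia with T3 and 8.23 (4.35 to 17.2) in hypoxia. Zfp36l3, the fourth of the class in mouse, had no read in any library, which allows up to 0.128 CPM in hypoxia with T3, 0.166 CPM in hypoxia and 0.139 CPM in control at 3 reads. These proteins act through the CCR4-NOT and decapping machinery. Of its 14 listed genes, none was 2-fold higher in either comparison, 2 were at least 2-fold lower in hypoxia with T3 and 3 in hypoxia, and the medians were -0.63 and -0.60. Cnot6l, a deadenylase subunit, had 13.7 CPM in hypoxia with T3, 13.8 CPM in hypoxia and 53.2 CPM in control.

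**Figure D3:**
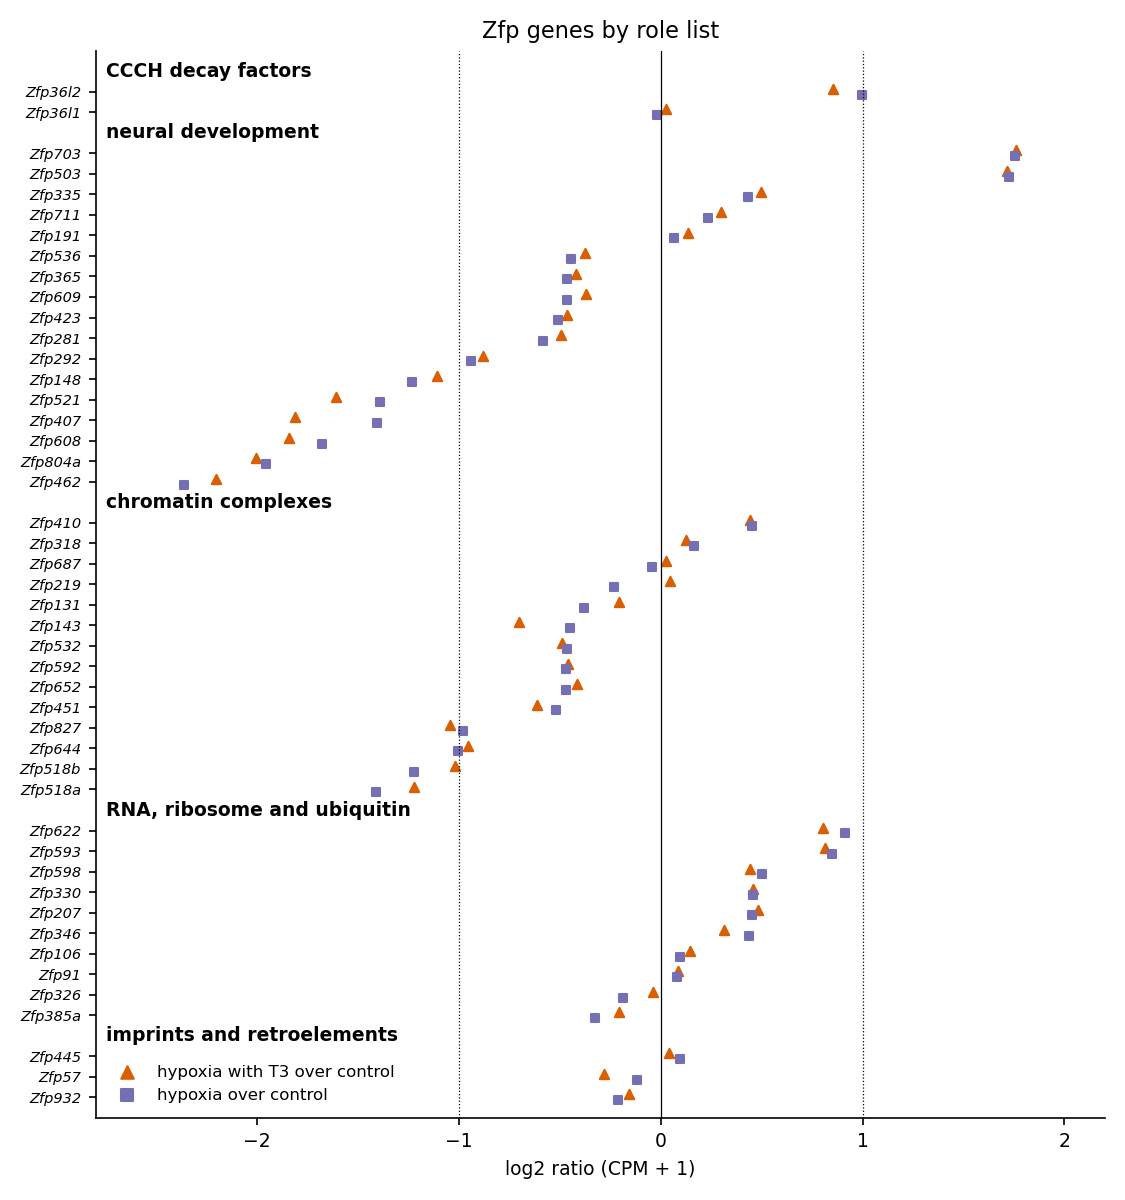
Log2 ratio of CPM plus 1 (x axis) of hypoxia with T3 over control (triangles) and hypoxia over control (squares) for the Zfp genes of at least 5 CPM on each role list, ordered within a list by the ratio in hypoxia. Genes of neural development run from 1.76 for Zfp703 to -2.36 for Zfp462 in hypoxia, whereas 8 of 10 genes listed for RNA, ribosome and ubiquitin lie above 0.

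Among the guardians of imprints and retroelements 3 genes reached the limit, and none was near 2-fold. Zfp57, which keeps methylation at imprinted regions, had 73.8 CPM in hypoxia with T3, 82.9 CPM in hypoxia and 90.0 CPM in control. Zfp445, its partner in that task, had 178 CPM in hypoxia with T3, 185 CPM in hypoxia and 173 CPM in control. Zfp932, a repressor of endogenous retroviruses, had 34.9 CPM in hypoxia with T3, 33.6 CPM in hypoxia and 39.1 CPM in control. Of its 31-base transcript words 48.3% also occur in Gm15446 or other genes, so its reads could be split between them.

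A KRAB pattern was found in the translated coding sequence of 130 of the 268 genes, no such pattern in 136, and 2 had no annotated coding sequence. The KRAB-pattern genes had a median of 12 C2H2 fingers and a median level of 2.87 CPM per kb, and the others 7 fingers and 5.13 CPM per kb. In hypoxia with T3 over control, 6 KRAB-pattern genes (4.62%) were at least 2-fold lower and 2 (1.54%) higher, with a median log2 ratio of -0.18. Of genes without the pattern, 14 (10.3%) were lower and 2 (1.47%) higher, with a median of -0.04. The shares of all genes of at least 5 CPM were 4.22% lower and 2.16% higher. In hypoxia over control the counts were 11 lower and 2 higher with a median of -0.22 for KRAB-pattern genes, and 15 lower and 2 higher with a median of -0.03 for the rest. With libraries scaled to equal sums, 15 KRAB-pattern genes in hypoxia with T3 and 24 in hypoxia were at least 2-fold lower, beside 19 and 21 of the rest. Which set held more lower genes in hypoxia thus depended on the scale. Of all genes of at least 1 CPM, 7.23% in hypoxia with T3 and 7.64% in hypoxia were lower under equal sums. The medians under that scale were -0.37 in hypoxia with T3 and -0.38 in hypoxia for KRAB-pattern genes, and -0.22 and -0.20 for the rest. In the lowest expression class, means of 5 to 10 CPM, the medians in hypoxia were -0.50 for 48 KRAB-pattern genes and -0.46 for 19 without it. At means of 10 to 20 CPM they were -0.30 for 34 and -0.10 for 35 genes.

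TRIM28 and its partners carry out the repression that KRAB proteins start. Trim28 had 348 CPM in hypoxia with T3, 354 CPM in hypoxia and 220 CPM in control, and was 1.58-fold (1.53 to 1.64) and 1.61-fold (1.55 to 1.67) higher. Of the 17 genes listed for this machinery none was 2-fold higher and 3 were at least 2-fold lower in each comparison with control, with medians of -0.13 in hypoxia with T3 and -0.15 in hypoxia. Atf7ip, which stabilizes the methyltransferase SETDB1, had 27.8 CPM in hypoxia with T3, 27.9 CPM in hypoxia and 71.3 CPM in control. Fam208a, a HUSH complex subunit, had 25.1 CPM in hypoxia with T3, 22.1 CPM in hypoxia and 59.9 CPM in control. Smarcad1, a chromatin remodeller that binds TRIM28, had 24.9 CPM in hypoxia with T3, 22.0 CPM in hypoxia and 58.9 CPM in control. Setdb1 itself had 58.6 CPM in hypoxia with T3, 62.8 CPM in hypoxia and 79.6 CPM in control.

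Gene span, taken from first to last annotated exon, moved with the ratios. The 48 Zfp genes under 10 kb had a median log2 ratio of 0.18 in hypoxia with T3 and 0.19 in hypoxia. The 164 genes of 10 to 30 kb had -0.09 and -0.12, the 38 of 30 to 100 kb had -0.49 and -0.46, and the 18 of 100 kb or more had -0.52 and -0.63. Of those 18, none was 2-fold higher, and 7 in hypoxia with T3 (38.9%) and 6 in hypoxia (33.3%) were at least 2-fold lower. Of 1646 other genes of that span, 15.6% and 16.6% were at least 2-fold lower, and 1 and 0 were 2-fold higher. The longest bin rests on 18 genes, and its order against the next shorter bin held in both comparisons. Across the 268 genes Spearman's rho of ratio against span was -0.43 in hypoxia with T3 and -0.45 in hypoxia, as a description over genes that share the same 2 libraries. Other genes of at least 5 CPM showed the same slope, with rho of -0.55 and -0.56 over 10032 genes.

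Within every span bin the Zfp median lay below that of the other genes. In hypoxia the other genes had medians of 0.39 under 10 kb, 0.23 at 10 to 30 kb, -0.10 at 30 to 100 kb and -0.34 at 100 kb or more, and in hypoxia with T3 they had 0.39, 0.24, -0.07 and -0.33. Zfp genes were the shorter set, with a median span of 17.2 kb beside 27.4 kb. KRAB-pattern genes did not stand on 1 side of the others in every bin. Under 10 kb, 14 KRAB-pattern genes had medians of 0.27 in hypoxia with T3 and 0.26 in hypoxia, above the 0.15 and 0.15 of 34 genes without the pattern. At 10 to 30 kb, where most of the family lies, 101 KRAB-pattern genes had medians of -0.19 in hypoxia with T3 and -0.23 in hypoxia, whereas 62 genes without the pattern had 0.06 and 0.05. Under equal sums the medians of those 62 turned to -0.12 in each comparison. At 30 to 100 kb, 13 KRAB-pattern genes had medians of -0.55 in hypoxia with T3 and -0.54 in hypoxia, below the -0.49 and -0.46 of 24 without it. At 100 kb or more, 2 KRAB-pattern genes had -0.67 and -0.75, below the -0.51 and -0.56 of 16 without it. Level also moved with the ratios: the median in hypoxia was -0.45 for 68 Zfp genes with means of 5 to 10 CPM, -0.14 for 70 of 10 to 20 CPM, -0.05 for 97 of 20 to 50 CPM and 0.08 for 33 of 50 CPM or more. Other genes in those classes had -0.10, -0.03, 0.05 and 0.21. The parts that span, level and KRAB pattern take in one another were not tested.

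**Figure D4:**
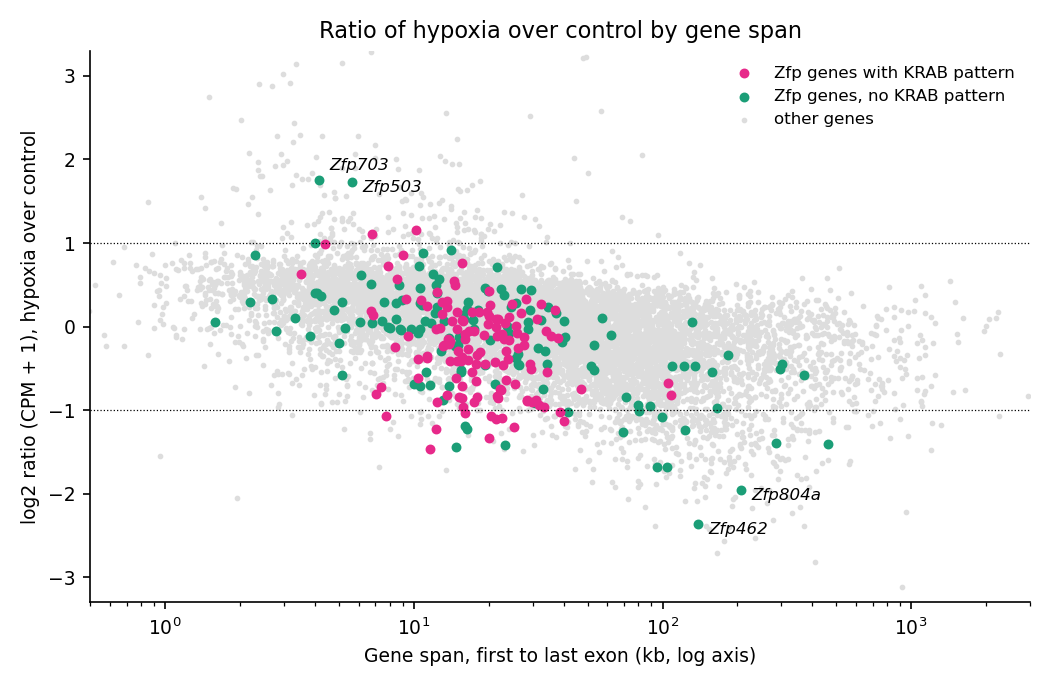
Log2 ratio of CPM plus 1 of hypoxia over control (y axis, shown from -3.3 to 3.3) against gene span (x axis, kb on a log scale) for Zfp genes with and without a KRAB pattern and for other genes averaging 5 CPM or more; a few of the other genes lie beyond the axis. Zfp703 and Zfp503 lie at the short end above 1, and Zfp462 and Zfp804a lie beyond 100 kb near -2.

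**Figure D5:**
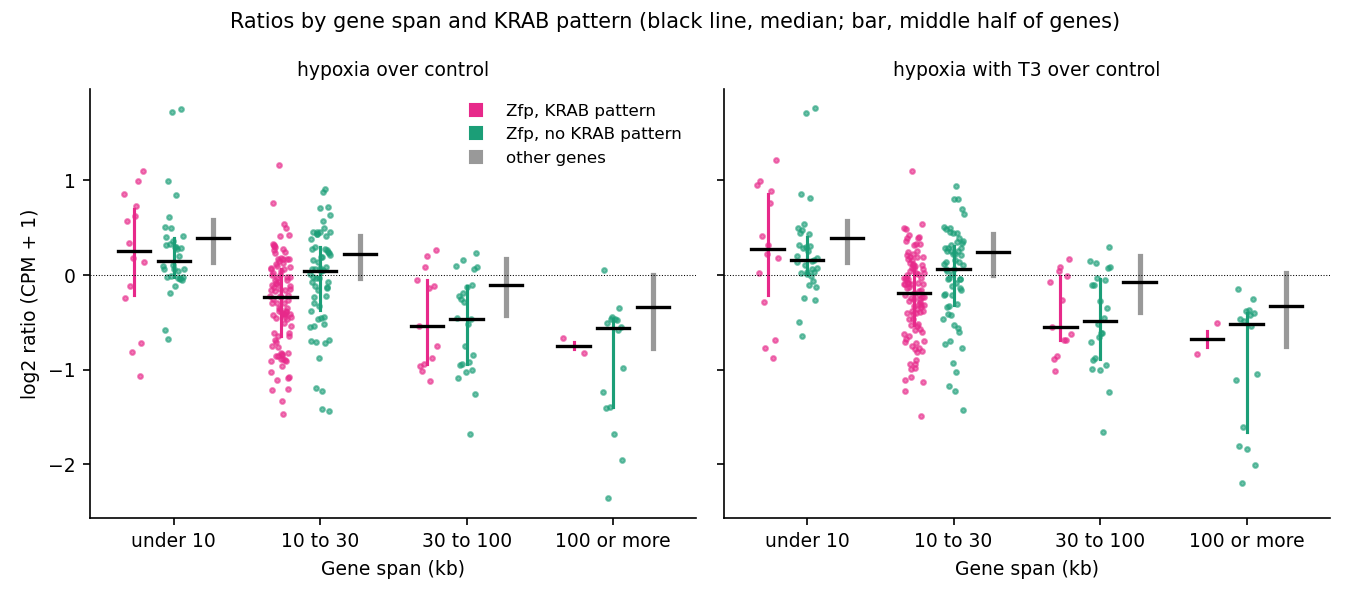
Log2 ratio of CPM plus 1 (y axis) in 4 bins of gene span (x axis, kb) for hypoxia over control and hypoxia with T3 over control; points are Zfp genes, black lines medians and bars the interquartile range of each set, with other genes of at least 5 CPM in grey. Medians step down from the shortest to the longer bins, and in hypoxia the KRAB-pattern genes have a median of 0.26 under 10 kb and -0.23 at 10 to 30 kb, beside 0.15 and 0.05 for genes without the pattern.

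By position, 66 of the 268 lie on chromosome 7, 32 on chromosome 17 and 19 on chromosome 8. Another Zfp gene was found within 100 kb of 144 of them, among these 96 with the KRAB pattern. These neighbours had a median log2 ratio of -0.04 in hypoxia with T3 and -0.07 in hypoxia, and the 124 without such a neighbour had -0.20 and -0.17. Runs of neighbouring genes differed in whether their genes shared a direction. Only some of the runs found are described, and those left out were mixed or mostly lower. In the run of 5 at chr7:4915217-5053723 (Zfp628, Zfp579, Zfp865, Zfp784 and Zfp580), all 5 were above control in hypoxia, with log2 ratios of 0.04 to 0.58. Of all genes of at least 5 CPM, 57% were above control in hypoxia, and no other run found had every gene on 1 side. For Zfp628 the authors' deposited signed fold lay on the other side of control, at -1.06 in hypoxia with T3 and -1.01 in hypoxia. In the run of 7 genes at chr7:24081924-24316666, which holds Zfp61, Zfp235 and Zfp93, log2 ratios in hypoxia ran from -0.90 to 1.16. Zfp93 had 4.12 CPM in hypoxia with T3, 4.03 CPM in hypoxia and 7.28 CPM in control there, and 29.9% of its 31-base words are shared with other genes. The largest run, 13 genes at chr7:29768552-30169750 with Zfp383 among them, had a median of 0.14 in hypoxia with T3 and 0.07 in hypoxia, and none of its genes was past 2-fold. Lower values filled the run of 7 at chr17:32765496-33110705, which holds Zfp871 and Zfp799: 6 of 7 were below control in hypoxia, 2 of them past 2-fold, with a median of -0.46. Beside them, 43% of all genes of at least 5 CPM were below control in hypoxia and 4.56% at least 2-fold lower. The 9 genes on chromosome 18 had a median of -0.99 in hypoxia with T3 and -1.09 in hypoxia, and 5 of them were at least 2-fold lower in hypoxia, Zfp516, Zfp608, Zfp407 and Zfp521 being 4 of these. The median span of those 9 was 99.3 kb, and the same all-gene shares of 4.22% and 4.56% lower stand beside their counts. Chromosome 18 was named because its median was the lowest of all chromosomes in both comparisons, so its low values are no finding. Of its genes, Zfp516 and Zfp521 were under 5 CPM in both hypoxic libraries and passed the limit through control.

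Other zinc finger families gave a mixed picture. Of 35 Zbtb genes of at least 5 CPM, none was 2-fold higher and 3 in hypoxia with T3 and 2 in hypoxia were at least 2-fold lower, with medians of -0.21 and -0.24. The 17 Zkscan and Zscan genes had none past 2-fold and medians of 0.27 and 0.25. The 14 Zc3h genes, which include CCCH proteins, had 1 lower in each comparison and medians of -0.06 and -0.10. Of all genes of at least 5 CPM, 4.22% were lower and 2.16% higher in hypoxia with T3, and 4.56% and 2.06% in hypoxia. No difference between these families and the Zfp genes was tested.

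The last comparison set T3 under hypoxia against hypoxia alone. In hypoxia with T3 against hypoxia, which shares a library with each comparison above, none of the 268 was 2-fold higher or lower, where 0.126% of all genes of at least 1 CPM were higher and 0.063% lower, and 0.106% and 0.0289% of those of at least 5 CPM, so a count of 0 is what the background share gives. Log2 ratios ran from -0.40 to 0.66 with a median of 0.03, and 243 of the 268 genes (90.7%) lay within 1.2-fold, beside 93.4% of all genes of at least 5 CPM. Counting intervals excluded 1 for 39 genes, 28 above and 11 below, or 10.4% and 4.10%, beside 12.4% and 7.25% of all genes of at least 5 CPM. On the log2 scale 1 Zfp gene passed 1.5-fold upward, Zfp786, and none downward, beside 0.717% and 0.276% of all genes of at least 1 CPM and 0.376% and 0.135% of those of at least 5 CPM. Zfp786, a KRAB-pattern gene, had 4.59 CPM in hypoxia with T3, 2.54 CPM in hypoxia and 8.81 CPM in control, from 108, 46 and 190 reads. Its fold for hypoxia with T3 over hypoxia was 1.81 (1.27 to 2.61), and both hypoxic libraries remained below control.

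After Zfp786 came Zfp654, Zfp930, Zfp719 and Zfp560. Zfp654 had 12.1 CPM in hypoxia with T3 and 8.28 CPM in hypoxia, a fold of 1.46 (1.19 to 1.79), beside 15.7 CPM in control. Zfp719 had 13.8 CPM in hypoxia with T3 and 9.5 CPM in hypoxia, a fold of 1.45 (1.2 to 1.76), beside 17.6 CPM in control. Zfp930 had 5.23 CPM in hypoxia with T3, 3.42 CPM in hypoxia and 6.86 CPM in control, and Zfp560 had 5.66, 3.92 and 9.73 CPM in the same libraries. In each of these 5 genes the library with T3 lay between hypoxia and control. The 5 were chosen for a high ratio over the same hypoxia library, which favours this order, so the order is no finding. The lowest ratio belonged to Zfp407, at 5.02 CPM in hypoxia with T3 against 6.96 CPM in hypoxia, 1.39-fold lower (1.07 to 1.80), and control was above both at 20.1 CPM. Zfp791, Zfp747, Zfp933 and Zfp184 followed, 1.33-fold, 1.28-fold, 1.25-fold and 1.22-fold lower in hypoxia with T3 than in hypoxia. For Zfp933 the interval of 0.987 to 1.59 included 1. Zfp747 shares 52.1% of its words with other genes, so its reads are uncertain. For the genes furthest above and below control, the interval of hypoxia with T3 over hypoxia included 1, at 0.940 to 1.07 for Zfp703 and 0.986 to 1.27 for Zfp462, whereas Zfp786 and Zfp407, also among the 10 lowest in hypoxia, had intervals without 1.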

How the data were processed

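RNA of 3 cultures was sequenced from strand-specific KAPA libraries, per the labels' protocols. bcl2fastq 2.17, Bowtie2 2.1.0, RSEM 1.2.15 and mm10 are named, per the submitters' processing notes, without their roles; the counter, the annotation, the filters and the use of strand are not given in the sources used here. The authors deposited CPM with TMM scaling, per the file headers and title. Every CPM value was a whole multiple of the value of 1 read (100% within 0.01 read), which gave the reads and depths quoted. No count test could be run on the recovered reads, because no group has a replicate. The authors' deposited comparison tables give each gene a signed fold (a score), its p-value and its false discovery rate, from a test not named in the sources used here. A signal column per library in those tables, made by the authors, is a constant multiple of the CPM and was not used.

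From the CPM, log2 ratios with 1 CPM added were computed for the 12692 genes averaging 1 CPM or more, and folds with 95% Clopper-Pearson intervals, in Python 3.11.15 with numpy 2.4.6, pandas 2.3.3 and scipy 1.17.1. The ratio calculation was tested on simulated data. Spans, exons, neighbours, shared 31-base words and translated coding sequences came from GENCODE M21 (267 genes matched by symbol and 1 by synonym). C2H2 fingers were counted by a strict spacing pattern, so atypical fingers are missed and 13 genes had none. The KRAB pattern was widened once, after ratios had been seen, because a first, narrower one missed genes known to carry the domain; a match is not an annotated domain. With the narrower one, 81 genes matched, and their medians were -0.23 in hypoxia with T3 and -0.26 in hypoxia over control.

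Named genes were the 10 highest and 10 lowest ratios to control in each hypoxic library, the 5 highest and 5 lowest with T3 over hypoxia, the 10 highest means, those nearest 5 CPM and the role lists. Zfp428, Zfp580 and its 4 neighbours on chromosome 7, and chromosome 18 as a set, were named after their values were seen. Members and lists were chosen with earlier results of these data known. Of the 268 genes, 6 share at least 50% of their words with another gene, and 11 overlap antisense genes over more than 20% of their exonic bases.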

Additional observations from a re-analysis of the deposited data

How the results depend on the processing

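The medians of the Zfp genes kept their sign in each comparison under every setting run. With 5 CPM added before the ratio, 2 genes were 2-fold higher in hypoxia over control, beside 1.22% of the 12692 genes. Under the same setting 10 were lower in hypoxia with T3 and 10 in hypoxia, beside 2.12% and 2.25% of the 12692 genes. At 1.5-fold, 15 were higher and 60 lower in hypoxia with T3 over control, 17 and 66 in hypoxia over control (all genes, 8.73% and 13.1%, then 8.46% and 13.8%), and 1 was higher in hypoxia with T3 over hypoxia. With libraries scaled to equal sums of reads, 34 were lower in hypoxia with T3 and 45 in hypoxia, beside 7.23% and 7.64% of all genes; the sign of the ratio to control turned for 42 and 33 of the 268 genes under that or median-of-ratios scaling. With a limit of 10 CPM for the mean, 12 and 14 genes were lower, beside 3.63% and 3.96% of all genes over that limit, and with the whole counting interval past 2-fold, 13 and 16, beside 2.97% and 3.14%. Fewer genes enter under the 10 CPM limit, and the cause of the other shifts was not tested. None of the Zfp genes was 2-fold apart between hypoxia with T3 and hypoxia under the other settings. No paired analysis was possible because each group held 1 library, and leaving out a replicate could not be done for the same reason. Depth limits small differences: the median half-width of the counting interval over the 268 genes was 0.20 on the log2 scale for hypoxia with T3 over control and 0.22 for hypoxia over control.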
